A study of Homo sapiens with 6 samples.

Results

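The genes of the Integrator complex described here were the 10 subunit genes INTS1 to INTS10, taken by gene symbol from 23284 symbols measured in all 6 samples. They were listed by name, and INTS1 was selected on its lower level in the lyophilized samples of this same data set, so the difference of INTS1 between the groups is described and not tested. The samples came from GM12873, a human B-lymphoblastoid line, that is, B cells immortalized with Epstein-Barr virus and grown in suspension. The 3 control samples were washed in PBS and lysed in TRIzol directly. The 3 lyophilized samples were snap-frozen and freeze-dried in 0.1 M trehalose in PBS, kept dry at room temperature for 2 weeks, and then lysed in TRIzol. The study asked whether drying the cells changes what is measured of their RNA. The study pairs each lyophilized sample with 1 control sample, and the replicate numbers in the sample titles were taken as the pairs. All samples were of 1 cell line, so they hold no variation between people or lines.

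Integrator is a large protein complex that travels with RNA polymerase II. Its endonuclease cuts the nascent transcript of small nuclear RNA (snRNA) genes to form their 3′ ends, and it ends the transcription of many protein-coding genes shortly after the start site. The complex is built from a scaffold, a cleavage module, a module that holds the phosphatase PP2A, and an accessory module.

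The 10 genes share a complex but not a base composition, and the differences between the groups are set beside that property further on. INTS1 lies on chr7:1509913-1544018, minus strand (GRCh37, the build of the deposited tables), with 48 exons in its canonical transcript. That transcript was 6981 bases long, of which 6570 were coding, and 65.2% of its bases were G or C. GC content was lower in INTS5 (59.8%), INTS3 (53.5%), INTS9 (52.0%), INTS4 (47.2%), INTS10 (45.8%), INTS7 (42.4%), INTS2 (40.6%), INTS6 (39.4%) and INTS8 (38.5%). To show what this means in letters, the 90-base coding stretch whose GC content was nearest to that of its whole transcript is printed for 3 GC-rich and 3 GC-poor members, with G and C in capitals, 5′ to 3′ on the coding strand.
INTS1: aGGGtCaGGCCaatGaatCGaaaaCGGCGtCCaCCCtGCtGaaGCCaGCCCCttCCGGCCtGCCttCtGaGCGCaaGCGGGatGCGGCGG
INTS5: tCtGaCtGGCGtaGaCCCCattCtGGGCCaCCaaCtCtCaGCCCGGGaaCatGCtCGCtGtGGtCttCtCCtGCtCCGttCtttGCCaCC
INTS3: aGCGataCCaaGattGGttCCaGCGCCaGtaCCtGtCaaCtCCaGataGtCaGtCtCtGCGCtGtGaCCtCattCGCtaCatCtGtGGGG
INTS7: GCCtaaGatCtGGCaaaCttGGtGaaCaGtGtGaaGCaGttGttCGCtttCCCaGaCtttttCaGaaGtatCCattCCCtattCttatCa
INTS2: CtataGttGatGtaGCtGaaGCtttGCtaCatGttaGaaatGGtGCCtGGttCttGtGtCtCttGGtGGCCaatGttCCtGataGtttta
INTS6: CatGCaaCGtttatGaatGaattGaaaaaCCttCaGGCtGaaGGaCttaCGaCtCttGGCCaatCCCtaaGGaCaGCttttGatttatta
The INTS1 stretch lies at chr7:1542699-1542788, minus strand, and 59 of its 90 bases were G or C. The INTS6 stretch lies at chr13:52025203-52025292, minus strand, and 35 of its 90 bases were. The other stretches lie at chr11:62417349-62417438, minus strand (INTS5, 54 of 90), chr1:153730067-153730156, plus strand (INTS3, 48 of 90), chr1:212194465-212194554, minus strand (INTS7, 38 of 90) and chr17:59996767-59996856, minus strand (INTS2, 37 of 90).

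Levels are given in FPKM, fragments scaled to transcript length and to the number of mapped reads, so that they may be compared between genes. The tables held no read counts, so no counting interval could be given. From the steps between low FPKM values, the libraries were between 1.38 and 1.90 times as deep as the first control library, which was the shallowest. The B-lymphoblastoid label was checked with 10 markers, all at 18.5 FPKM or more in every sample. Markers of T cells (5 genes), monocytes (4), erythroid cells (3) and fibroblasts (3) did not exceed 1.11, 0.607, 0.118 and 0.409 FPKM, and CD3G, HBB and DCN were listed at 0 in every sample. The summed level of the B-lymphoblastoid markers ran from 1724 to 2694 FPKM in controls and from 1714 to 2608 in lyophilized samples. Fewer cells and less RNA per cell cannot be told apart in bulk samples of this kind.

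INTS1, the large scaffold subunit that the rest of the complex is assembled on, was at 51.3% of its control level after lyophilization. Its level was 14.61, 15.77 and 15.96 FPKM in control samples 1, 2 and 3, and 7.63, 8.70 and 7.42 FPKM in lyophilized samples 1, 2 and 3. The groups did not overlap, and the highest lyophilized sample was well under the lowest control. The group means were 15.4 ± 0.732 and 7.92 ± 0.686 FPKM (SD, n = 3 each), a control level 1.95 times the lyophilized one. On the log2(FPKM + 0.1) scale, which is used for all differences here, INTS1 was lower by -0.93, -0.85 and -1.09 in pairs 1, 2 and 3, with a fitted difference of -0.96 (SE 0.115). No exon of the canonical INTS1 transcript overlapped an exon of another annotated gene. Of the 3563 stretches of 75 bases of this transcript, the length of the reads, that lie unbroken in the genome, none occurred more than once.

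**Figure D1:**
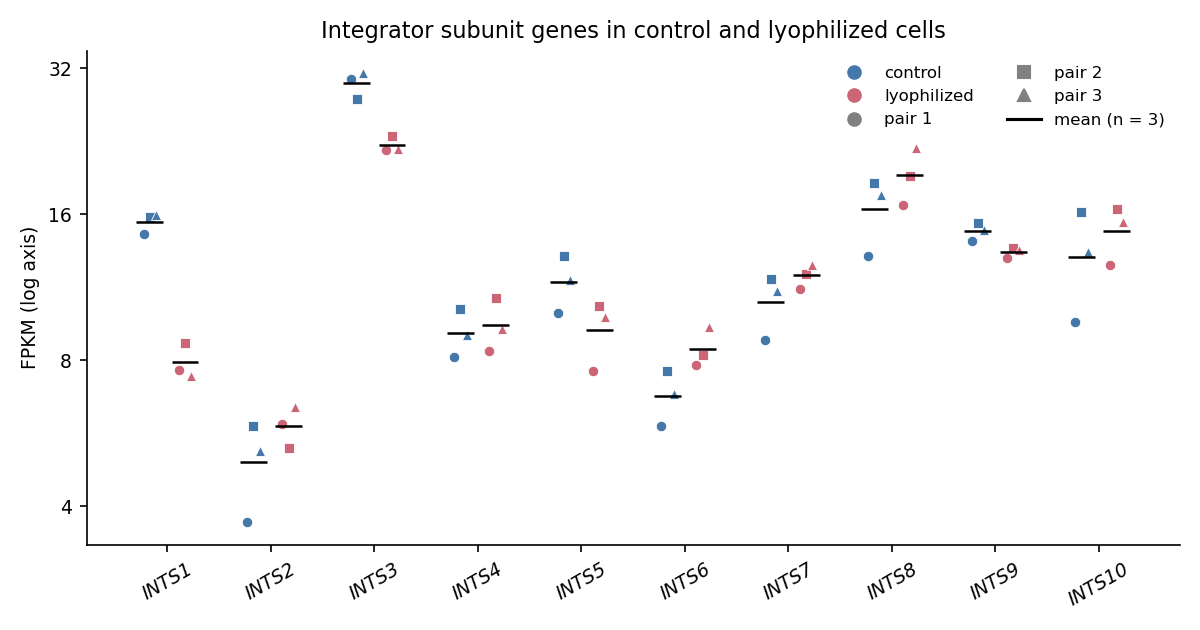
FPKM (log axis) of the 10 Integrator subunit genes in each of the 3 control (blue) and 3 lyophilized (red) samples, with symbols for the pairs and a black line at each mean. INTS1 was at 15.4 FPKM in controls and 7.92 FPKM in lyophilized samples with no overlap, while INTS4 and INTS10 overlapped between the groups.

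The cleavage module differed less between the groups than INTS1. It holds INTS4, INTS9 and the endonuclease INTS11, of which INTS9 is a catalytically inactive relative. INTS4 was at 8.121, 10.21 and 9.002 FPKM in controls and 8.36, 10.8 and 9.28 FPKM in lyophilized samples, so each sample lay close to its own partner and the groups overlapped. Of the 1527 stretches of 75 bases of INTS4 that lie unbroken in the genome, 333 (21.8%) occurred more than once. Reads mapping to several places had been discarded by the authors, and the copies INTS4L1 and INTS4L2 stayed between 0.564 and 1.83 FPKM, so the level of INTS4 is uncertain. INTS9 was at 14.11, 15.37 and 14.88 FPKM in controls and 13.01, 13.62 and 13.5 FPKM in lyophilized samples. These groups did not overlap, with differences of -0.12, -0.17 and -0.14 in the 3 pairs. INTS11, listed in the tables under its older symbol CPSF3L and not among the 10 genes, was at 40.7, 38.6 and 37.5 FPKM in controls and 34.3, 38.0 and 31.5 FPKM after lyophilization.

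The phosphatase module had members on both sides of 0. INTS5 and INTS8 are helical subunits of this part of the complex, INTS8 being needed to hold PP2A, and INTS6 is the third subunit of the arm. INTS5 was at 9.99, 13.2 and 11.7 FPKM in controls and 7.59, 10.4 and 9.82 FPKM in lyophilized samples. Its transcript shares 9.32% of its bases with an unnamed protein-coding gene on the same strand. INTS5 was lower in each of 3 pairs (-0.39, -0.34 and -0.25), while the groups overlapped, with the first control sample inside the lyophilized range. INTS6 was at 5.85, 7.61 and 6.82 FPKM in controls and 7.83, 8.20 and 9.35 FPKM in lyophilized samples, and the groups did not overlap. INTS8 was at 13.1, 18.6 and 17.6 FPKM in controls and 16.7, 19.2 and 21.9 FPKM in lyophilized samples, higher in 3 of 3 pairs with groups that overlapped. Reads carried no strand. Of the INTS8 transcript, 35.1% lies over exons of CCNE2 on the opposite strand, and of the INTS6 transcript, 10.7% lies over SERPINE3. CCNE2 was at 1.88 ± 0.880 FPKM in controls and 2.87 ± 0.851 in lyophilized samples (SD, n = 3), and SERPINE3 was listed at 0 in all samples. Reads of INTS8 and CCNE2 in the shared exons cannot be told apart.

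INTS2 and INTS7 sit with INTS1 in the core of the complex, and their mean levels were higher in the lyophilized samples. INTS2 had the lowest level of the 10 genes and the widest spread among pairs. It was at 3.71, 5.87 and 5.21 FPKM in controls and 5.91, 5.26 and 6.42 FPKM in lyophilized samples, with differences of 0.66, -0.15 and 0.30. INTS7 was at 8.80, 11.8 and 11.1 FPKM in controls and 11.2, 12.1 and 12.6 FPKM in lyophilized samples. The groups overlapped for both genes, and the low values were those of the first control sample.

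INTS3 belongs both to Integrator and to SOSS, a complex that binds single-stranded DNA at breaks. It was the most abundant of the 10 genes and, after INTS1, had the next largest difference. It was at 30.4, 27.7 and 31.3 FPKM in controls and 21.7, 23.2 and 21.8 FPKM in lyophilized samples. The groups did not overlap, and the pairs differed by -0.49, -0.26 and -0.52 (fitted difference -0.42, SE 0.105). The other SOSS genes were near or above 0 on this scale, and none was called lower. NABP1 (listed as OBFC2A) had a fitted difference of 0.25 (SE 0.134), NABP2 (OBFC2B) of 0.00 (SE 0.207) and INIP (C9orf80) of 0.29 (SE 0.216). INTS3 shares 8.66% of its transcript with exons of SLC27A3 on the same strand, which was at 1.82 ± 0.321 FPKM in controls and 1.63 ± 0.363 in lyophilized samples (SD, n = 3).

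INTS10 belongs to the accessory module with INTS13, INTS14 and INTS15. It was at 9.60, 16.2 and 13.4 FPKM in controls and 12.6, 16.4 and 15.5 FPKM in lyophilized samples. Both groups spanned a wide range, and in both the sample of pair 1 was the lowest. INTS13, listed as ASUN, was at 14.4, 25.9 and 19.1 FPKM in controls and 20.8, 28.7 and 23.8 FPKM in lyophilized samples, with the same order of pairs. The fitted differences were 0.21 (SE 0.203) for INTS10, 0.33 (SE 0.221) for INTS13, 0.08 (SE 0.143) for INTS14 (C15orf44) and -0.25 (SE 0.141) for INTS15 (C7orf26).

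The largest change of rank between the groups was that of INTS1. In controls the means ran from INTS3 (29.8 FPKM) through INTS8 (16.4), INTS1 (15.4), INTS9 (14.8), INTS10 (13.1), INTS5 (11.6), INTS7 (10.6) and INTS4 (9.11) to INTS6 (6.76) and INTS2 (4.93). Of neighbours in this order, only INTS3 and INTS8, and INTS4 and INTS6, had ranges that did not overlap. In lyophilized samples the order was INTS3 (22.2), INTS8 (19.3), INTS10 (14.8), INTS9 (13.4), INTS7 (11.97), INTS4 (9.46), INTS5 (9.26), INTS6 (8.46), INTS1 (7.92) and INTS2 (5.87). INTS1 thus moved from rank 3 to rank 9. There its range overlapped that of INTS6 above it and was separate from that of INTS2.

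A share within a sample does not depend on how samples are scaled to each other. INTS1 made up 12.4%, 11.1% and 11.7% of the summed FPKM of the 10 genes in controls and 6.78%, 6.81% and 5.82% in lyophilized samples. The difference of the means was -5.23 percentage points, and it was -5.57, -4.28 and -5.84 points in pairs 1, 2 and 3. Over the same samples the share of INTS3 differed by -4.52 points, unevenly between pairs (-6.45, -1.35 and -5.74 in pairs 1, 2 and 3). That of INTS8 differed by 3.37 points (3.78, 1.97 and 4.37). The summed level of the 9 genes other than INTS1 was 117.0 ± 11.9 FPKM in controls and 114.7 ± 8.49 in lyophilized samples (SD, n = 3), a difference within the spread of either group. INTS1 differed from the median of the other 9 genes by -1.15 on the log2 scale, and by -1.28, -0.87 and -1.27 in pairs 1, 2 and 3. The other 9 lay between -0.42 (INTS3) and 0.32 (INTS6), with 6 higher and 3 lower.

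**Figure D2:**
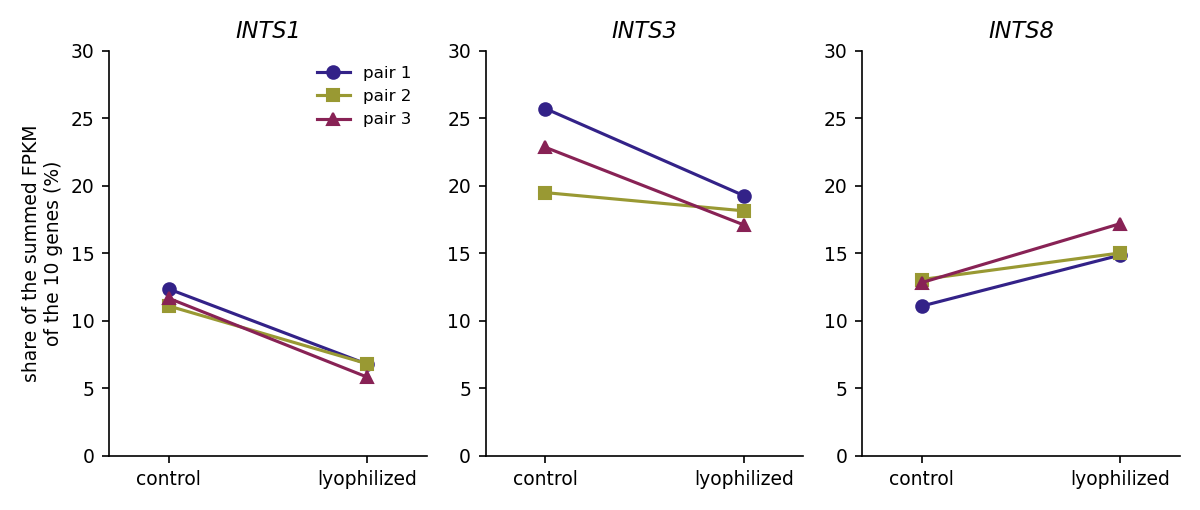
Share of the summed FPKM of the 10 genes (%, y axis) held by INTS1, INTS3 and INTS8 in control and lyophilized samples, with a line for each pair. The INTS1 share was between 11.1% and 12.4% in controls and between 5.82% and 6.81% in lyophilized samples, and the INTS8 share was higher in each lyophilized sample than in its partner.

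All 10 genes passed the filter on low values in both groups. In the fit without the pairs, which the study's own test also left out, limma called INTS1 lower and no member higher at an adjusted p of 0.05, beside 0.557% of 11134 genes called lower and 0.018% called higher. With the pairs as a block, 3 members were lower (INTS1, INTS3 and INTS5) and 2 higher (INTS6 and INTS8), beside 14.9% and 15.9% of all genes. The groups did not overlap for 3 members that were lower (INTS1, INTS3 and INTS9) and 1 that was higher (INTS6), beside 12.6% and 9.66% of all genes. Since INTS1 was selected on this contrast, nothing is read from these counts. Leaving out any 1 of the 6 libraries left no gene called in the fit without pairs, INTS1 included, and its difference was then between -1.03 and -0.91.

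Transcript GC content was not used in choosing the genes. INTS1, the member with the highest GC content, was selected on its lower level. The study had already related GC content to this contrast. All 4 members with a GC content above 50% were lower in lyophilized samples, INTS1 by -0.96 and the others by -0.14 to -0.42. All 6 below 50% were higher (0.05 to 0.32). The 9 other subunits and partners had the same division except for NABP2, with 2 of 3 lower above 50% and 6 of 6 higher below. All genes tested had the same trend. Among 1883 genes under 40% GC the median difference was 0.29, among 1735 genes of 45% to 50% it was 0.05, and among 353 genes of 65% or more it was -0.30, so a gene of the GC content of INTS8 or INTS6 was usually higher and one of the GC content of INTS1 usually lower.

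**Figure D3:**
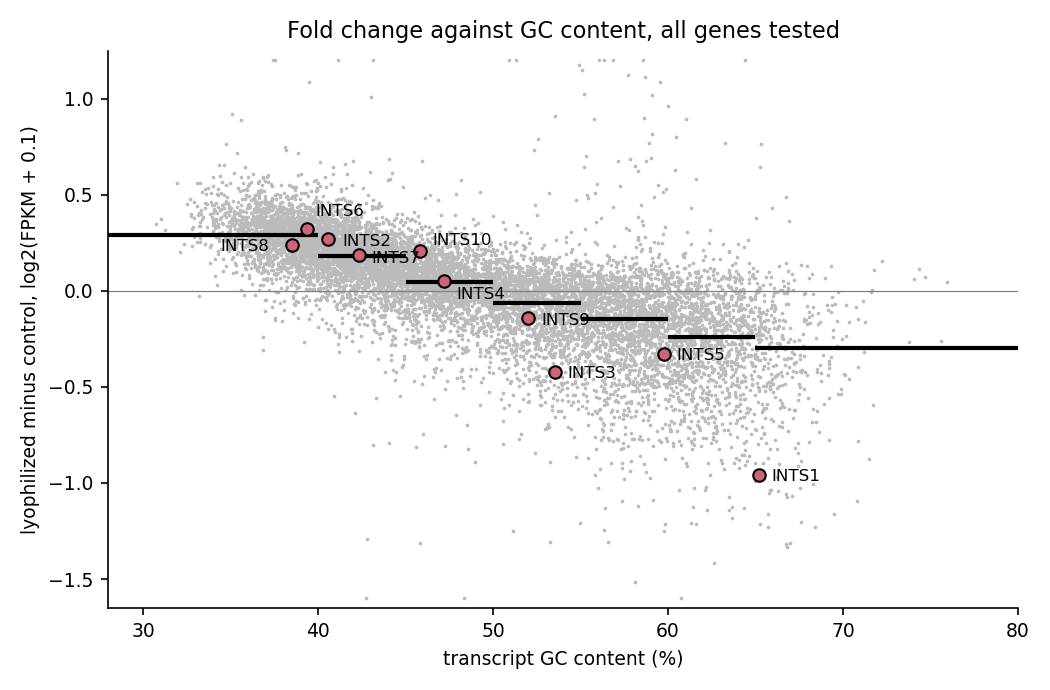
Difference between lyophilized and control samples (log2 scale, y axis) against transcript GC content (%, x axis) for all genes tested with an annotated transcript (grey, values beyond the axis drawn at its edge), with black lines at the median of each GC class and the 10 members in red. INTS4, INTS6, INTS7 and INTS8 lie near their class median, and INTS1 and INTS3 lie furthest below theirs.

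Within its GC class each member was set beside genes of like composition. INTS4 and INTS7 were 0.01 from the class median, INTS6 0.03 above and INTS8 -0.05 from it. INTS3 was -0.36 from its class median, with 6.40% of the 1609 genes of its class lower still, and INTS1 was -0.66 from its own, with 5.95% of 353 genes lower. INTS10 lay on the other side, 0.16 above its class median and higher than 89.9% of its class. INTS5 was -0.18, INTS9 -0.08 and INTS2 0.09 from theirs. The size of the differences varied between pairs in the members as in all genes. Under 40% GC the class median was 0.41, 0.11 and 0.35 in pairs 1, 2 and 3, and INTS8 differed by 0.35, 0.05 and 0.32. For 7 of 10 members pair 2 had the smallest difference.

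**Figure D4:**
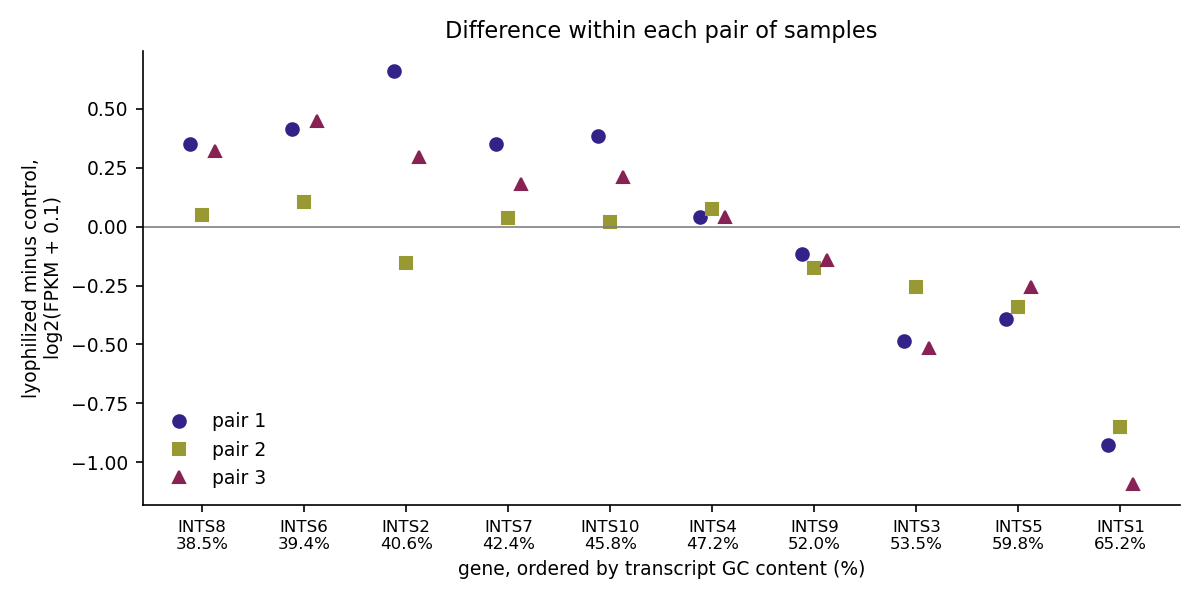
Difference within each of the 3 pairs (log2 scale, y axis) for the 10 members ordered by transcript GC content (x axis, % under each name). The 4 genes above 50% GC were lower in every pair, and of the 6 below 50% only INTS2 in pair 2 was not higher.

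INTS1 was also long, longer than 88.8% of genes tested. Among genes of at least 60% GC, the median difference was -0.10 for 676 genes under 2000 bases, -0.32 for 620 genes of 2000 to 4000 bases, -0.47 for 196 genes of 4000 to 6000 bases and -0.76 for 64 genes of 6000 bases or more. INTS1 is 1 of those 64, and 17 of them were lower than it. INTS6, at 7350 bases, was longer than INTS1 but had 39.4% GC and was higher in each pair.

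The values of INTS1 under a correction for these properties were therefore computed in each sample, with the pairs as a block. After correction for GC content, INTS1 was at -0.63 (SE 0.0585), INTS3 at -0.30 (SE 0.0538) and the other 8 members between -0.11 and 0.15. INTS1 and INTS3 were called lower and no member higher, beside 6.45% of genes called lower and 9.13% called higher. INTS1 was selected on this contrast in the same samples, so nothing is read from its call or its interval under either correction. After correction for GC content and length together, INTS1 was at -0.11 (95% interval -0.22 to 0.01), INTS3 was at -0.19 (95% interval -0.30 to -0.08) and was the only member called, beside 3.9% of genes lower and 4.4% higher. INTS1 then differed from the median of the other 9 by -0.15. GC content moved with the difference across all genes tested, and length did so among genes of at least 60% GC, where it was tabulated. Their part in the difference was not tested.

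**Figure D5:**
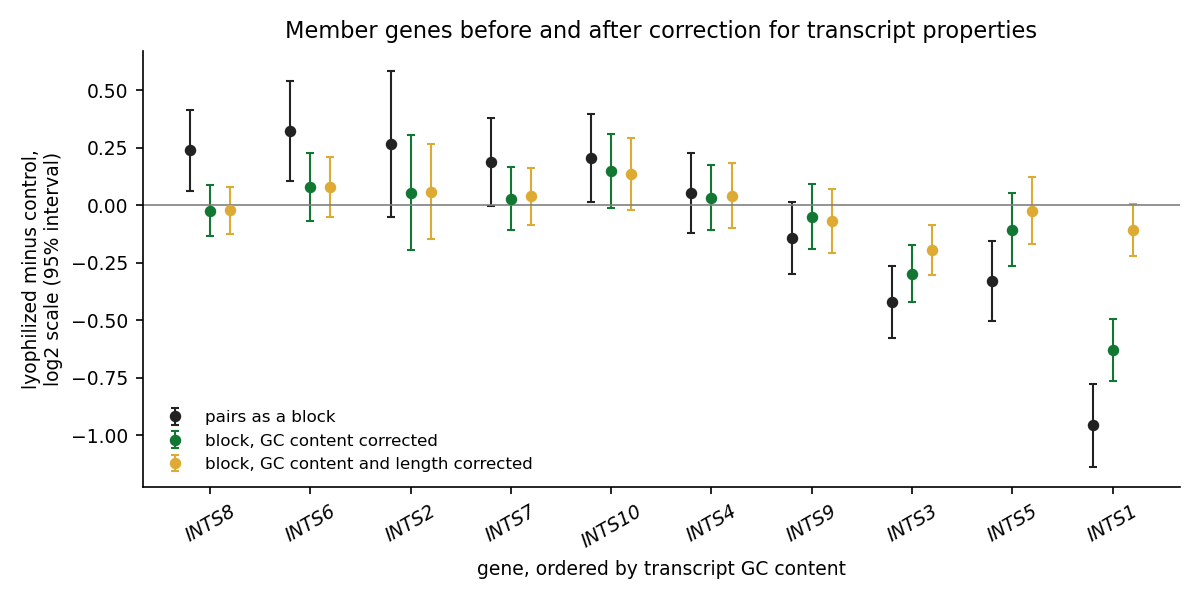
Difference between lyophilized and control samples with 95% interval (log2 scale, y axis) for the 10 members ordered by GC content (x axis), with pairs as a block, before correction (black), after correction for GC content (green) and for GC content and length (yellow). INTS1 moved from -0.96 to -0.63 and -0.11, and INTS3 from -0.42 to -0.30 and -0.19.

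Genes that work with Integrator, or in related steps of transcription and RNA 3′ end formation, were taken as 4 lists beside the other subunits. The name partners is used for all of them as a label only. In the fit without pairs none of these 53 genes was called by limma at an adjusted p of 0.05, and 4 of them had an unadjusted p under 0.05, beside 64 genes called and 1573 at an unadjusted p under 0.05 of all 11134. The median difference was 0.04 over all genes tested. With the pairs as a block, 19 of 53 were called, 7 lower and 12 higher, beside 14.9% and 15.9% of all genes, and nothing particular to the partners is read from the count. All 7 that were lower had a transcript GC content above 50% and all 12 that were higher one below 50%. All genes tested had the same trend, so it is not particular to the partners. Counting every negative difference, called or not, 2.18% of genes under 40% GC were lower, and 87.25% of those of 65% or more were. With the block and the correction for GC content, 5 of the 53 were called, beside 6.45% of all genes lower and 9.13% higher. After that for GC content and length 2 were called, beside 3.9% and 4.4%.

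Of the other subunits and partners (9 genes, median difference 0.09), INTS12, INTS13 and INIP were higher with the block and none was lower, and none was called after the correction for GC content. INTS12, a small subunit that binds INTS1, was at 14.1, 16.7 and 16.7 FPKM in controls and 18.9, 18.2 and 19.4 FPKM in lyophilized samples, with no overlap. Of the PP2A core (4 genes, median 0.13), only the catalytic subunit PPP2CA was called, at 50.6 ± 7.02 FPKM in controls and 57.5 ± 5.31 in lyophilized samples (SD, n = 3; limma adjusted p = 0.0312 with the block). PPP2R1B, a scaffold subunit of the phosphatase, had the highest fitted difference of this list (0.24, SE 0.197) and PPP2R1A, the other scaffold, the lowest (-0.07, SE 0.101). After the correction for GC content PPP2CA was at -0.02 and no gene of the list was called, and after that for GC content and length PPP2R1A was called higher (0.16).

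The pausing and elongation list (12 genes, median -0.10) holds the NELF and DSIF factors that stall RNA polymerase II, the kinase P-TEFb that releases it, and the 7SK proteins that hold P-TEFb inactive. With the block, the NELF subunit COBRA1 (NELFB) and the DSIF subunit SUPT5H were lower, and the P-TEFb cyclin CCNT1 and the 7SK protein LARP7 were higher. LARP7 had the highest difference of the list (0.39, SE 0.177, 37.7% GC) and SUPT5H the lowest (-0.23, SE 0.115, 58.0% GC). After the correction for GC content none of these 4 was called, and RDBP (NELFE) was called higher, while no gene of the list was called after that for GC content and length.

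Of the 18 genes of mRNA cleavage and polyadenylation (median 0.10), which cut and tail the pre-mRNAs of protein-coding genes, CPSF1, SYMPK and CPSF7 were lower with the block and CPSF2, NUDT21 and PAPOLA higher. CPSF1, the large subunit of the cleavage factor, had the lowest difference, at 20.9 ± 2.30 FPKM in controls and 14.7 ± 1.19 in lyophilized samples (SD, n = 3; -0.50, SE 0.127, limma adjusted p = 0.00163 with the block). CPSF2, the inactive relative of the cleavage factor's endonuclease, had the highest (0.37, SE 0.245). CPSF1, SYMPK and CPSF7 were still called lower after the correction for GC content, and CPSF7 after that for GC content and length.

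Of 10 genes for transcription of snRNA genes (median 0.17), SNAPC4 and ELL were lower with the block and SNAPC1, KIAA0947 (ICE1) and NARG2 (ICE2) higher. SNAPC4, the large DNA-binding subunit of the snRNA activating complex, was the lowest of all 53 genes. It was at 6.81 ± 0.108 FPKM in controls and 4.19 ± 0.377 in lyophilized samples (SD, n = 3), a difference of -0.69 (SE 0.121, limma adjusted p = 0.0617 without and 0.00194 with the block), and its transcript had 63.5% GC. After the correction for GC content SNAPC4 alone was called (-0.39), and after that for GC content and length none of the 10. SNAPC1, another subunit of that complex, had the highest (0.38, SE 0.166, 36.9% GC).

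The genes whose profile over the 6 samples was most like that of INTS1 were found by the root mean square difference of centred log2 values. They were LOC613037 (0.029), RAI1 (0.068), PKD1P1 (0.069), NPIPL3 (0.073) and PCNXL3 (0.082). All of them were lower in the lyophilized samples. The profile holds the difference on which INTS1 was selected, so the GC content and length of these genes are only described. LOC613037, PKD1P1 and NPIPL3 belong to families of near-identical copies, so their levels are uncertain. RAI1 had a transcript of 7677 bases with 64.1% GC and PCNXL3 one of 7102 bases with 63.8% GC, both close to INTS1 in these properties. PKD1P1 had one of 6805 bases with 66.8% GC. NPIPL3 was unlike them, with 1342 bases and 57.4% GC, and was at -0.85 after the correction for GC content and length. LOC613037 had no GC content or length from the annotation. Among the members, INTS3 was the most like INTS1 at 0.281, behind 445 other genes, followed by INTS5 (0.346) and INTS9 (0.412), and INTS6 was the least like it (0.657).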

How the data were processed

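The authors sequenced poly(A)-selected TruSeq v2 libraries (75 bases, single-end, no strand), mapped reads to hg19 with TopHat 2.0.7, keeping reads with 1 position, and deposited FPKM values from Cufflinks, whose version and annotation are not given in the sources used here. The submitters' notes also name CASAVA 1.4. Relative depth was estimated from steps between FPKM values under 0.06.

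From the 24934 deposited records, 1 record per symbol (the highest mean FPKM) gave 23284 symbols. After removal of 1622 small RNA symbols, 11134 genes remained whose FPKM averaged over 1 in either group. They were fitted in limma 3.58.1 (R 4.3.3) as log2(FPKM + 0.1), with the variance allowed to follow the mean, and p-values were adjusted after Benjamini and Hochberg and read at 0.05. The main fit held the condition alone, as the study's test did, and another held the pairs as a block. The study states the pairing, the replicate numbers of the titles were taken as the pairs, and deviations from the group means correlated within pairs at 0.716, 0.603 and 0.476. GC content and length came from the Ensembl canonical transcript (GENCODE v44 on GRCh37, 10763 genes), and loess curves of span 0.3 and degree 2 were subtracted in each sample. The fits with and without the block were tested on simulated data. Sequences came from GRCh37, the build of the files. The study describes the pairs as cell batches without saying how these were grown apart, so the p-values measure the spread between these samples, part of which may be technical.

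All members were named. From the partner lists, the called genes and the highest and lowest differences were named, together with the 5 genes most like INTS1. The members and lists were chosen with earlier results of these data known. The alternatives were other pseudocounts, filters, scalings and record rules, no trend, the block, the corrections, and leaving out each sample or pair. Tables were handled in Python 3.11.15 with pandas 2.3.3, and figures drawn with matplotlib 3.10.9.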

Additional observations from a re-analysis of the deposited data

How the results depend on the processing

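Of 11134 genes, 64 were called without pairs, and 1 member. With the pairs as a block these were 3423 and 5, with the block and the GC correction 1677 and 2, and with the block and the correction for GC content and length 894 and 1. In alternatives chosen after seeing the data, the block gave 1727 and 2 with GC content from the longest transcript, 3574 and 5 with median-ratio scaling, and 3510 and 5 with quantile normalization. The count was 131 without pair 1. It was 0 genes and 0 members without pair 2, without pair 3, with no filter on low values, and with the GC correction without the block (limma, unadjusted p under 0.05 for 1392, 394, 2069 and 689 genes). Leaving out each replicate in turn gave 0 to 0 genes and 0 to 0 members, with 885 to 2110 genes at an unadjusted p under 0.05. The cause was not tested. Of the 53 partner genes, 0 were called without pairs, 1 with median-ratio or upper-quartile scaling, 19 with the block, 5 and 2 with the block and each correction, and 6, 21 and 20 in the added alternatives in the order above.

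INTS1 minus the median of the other members was -1.15. It was -0.66 with the GC correction, with or without the block, -0.63 with the longest transcript, and -0.15 with the correction for GC content and length. INTS1 was lower in all 25 alternatives (-1.03 to -0.11). It was selected for its lower level in these same samples, so nothing is read from that direction. INTS4 and INTS8 changed sign in 3 and 4 of 25 alternatives, and the other members in none. The difference in the INTS1 share was -7.71 points with FPKM weighted by transcript length and -2.56 points with the other subunits in the sum. The scalings left each member's direction as it was. Without read counts, depth sets no stated limit on these values, and 3 samples per group limit their precision.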
